A study of Homo sapiens with 6 samples.

Results

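Mucin genes were followed in A549, a widely used human lung adenocarcinoma cell line. A probe set, the group of short probes that reports 1 transcript or a set of like transcripts, was taken as a member when the platform annotation gave it exactly 1 symbol out of 9 listed mucin genes. This gave 29 of 49293 probe sets, which stand for 8 of 18244 genes: 13 for MUC1, 4 each for MUC5B and MUC20, 2 each for MUC4, MUC13 and MUC15, and 1 each for MUC2 and MUC16. MUC5AC had no such probe set and was not analysed here. All cells had received a lentivirus with a short hairpin RNA (shRNA), directed at TIGD1 in the group labelled shTIGD1 and carrying a negative control sequence in the group labelled shControl. Each group had 3 arrays, and 1 hairpin sequence per group was given. The labels do not say that the arrays of a group came from separate cultures, so p-values rest on the scatter among arrays, part or all of which may be technical, and the number of arrays limits the precision. In bulk RNA, fewer cells that express a gene and less RNA per cell cannot be told apart.

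Mucins are large glycoproteins whose repeated serine- and threonine-rich stretches carry dense O-linked sugar chains. The secreted, gel-forming mucins (MUC2, MUC5AC and MUC5B among the listed genes) are packed in granules and form the mucus of the airway and gut. The membrane-bound mucins (MUC1, MUC4, MUC13, MUC15, MUC16 and MUC20) coat the cell surface, and several of them signal through partners in the cell. In lung, MUC5B and MUC5AC are the main gel-forming mucins of airway mucus, and MUC1 is commonly expressed in adenocarcinoma.

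The proximal promoters of the membrane mucin genes MUC1 and MUC13 are shown first. They were chosen because the brightest probe set of each lay well above the dim end and was higher in the arrays labelled shTIGD1. Their start regions also held different motifs. RefSeq promoter windows were matched for 5 of the members (MUC1, MUC2, MUC4, MUC13 and MUC16). The sequences are RefSeq's for GRCh38.p14, 5′ to 3′ on the strand of the gene, from 250 bases before to 50 bases after its start. Capitals mark every match to the motifs searched. These were the TATA box TATAAA, the GC box GGGCGG, the AP-1 motif TGANTCA, the cAMP response element TGACGTCA, a forkhead motif TGTTTAC, the short HNF1 motif GTTAAT and the NF-kB motif, on both strands.
MUC1, chr1:155192866-155193165, minus strand: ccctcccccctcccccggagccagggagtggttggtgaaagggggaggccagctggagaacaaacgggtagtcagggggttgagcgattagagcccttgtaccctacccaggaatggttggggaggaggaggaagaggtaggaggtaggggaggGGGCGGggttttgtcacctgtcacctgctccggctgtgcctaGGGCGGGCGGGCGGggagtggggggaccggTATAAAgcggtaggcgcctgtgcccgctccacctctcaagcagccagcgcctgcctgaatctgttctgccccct
MUC13, chr3:124934702-124935001, minus strand: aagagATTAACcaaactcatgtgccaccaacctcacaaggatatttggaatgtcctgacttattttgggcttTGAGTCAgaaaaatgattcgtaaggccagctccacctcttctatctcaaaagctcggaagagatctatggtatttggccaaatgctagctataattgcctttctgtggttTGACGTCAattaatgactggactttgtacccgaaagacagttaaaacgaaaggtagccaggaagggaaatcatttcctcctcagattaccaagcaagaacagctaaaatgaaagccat

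The MUC1 window held a TATA box at -24 to -19 and 4 GC boxes, 3 of which overlap between -54 and -41. A TATA box was found in 11.5% and a GC box in 45.0% of 35116 promoter windows of the same length. The MUC13 window held neither. It held an AP-1 motif at -178 to -172 (7.71% of all windows), a cAMP response element at -68 to -61 (1.85%) and an HNF1 motif on the opposite strand at -245 to -240 (6.88%). Its GC content was 41.0%, against 65.7% for MUC1. A forkhead motif (3.42% of all windows) and the NF-kB motif (11.3%) matched in neither window. In the other windows at a gene start, a GC box matched for MUC2, MUC4 and MUC16 and an AP-1 motif for MUC2. None of these genes is among those called as higher below. The matches are a description of the letters only.

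The groups compare cells in which TIGD1 was targeted with cells that carry the control hairpin. TIGD1 itself read 6.96, 6.93 and 6.85 in shControl, against 6.88, 6.84 and 6.86 in shTIGD1, so the groups overlapped. Its log2 difference of -0.06 (SE 0.04) did not pass (limma adjusted p = 0.427, and exact permutation p = 0.3, two-sided, where 0.1 is the smallest possible). Directions below are therefore those of the array labels. Arrays correlated at 0.998 to 0.999 within groups and 0.996 between them. The epithelial identity of the cells was checked on 7 markers of simple epithelium, which cannot tell A549 from other epithelial lines. All had a mean log2 signal of at least 7.11. Medians were 4.99 for alveolar type 2, 4.23 for club, 5.56 for ciliated, 4.53 for basal, 4.72 for immune, 4.90 for endothelial and 4.48 for fibroblast markers. Single markers were brighter, such as ABCA3 (alveolar type 2, 8.74) and CYP2F1 (club, 7.27). The 24 measured immune and endothelial genes, with a median of 4.79 and a 95th percentile of 6.66, served as a guide to the level of genes that these cells are not known to use, though their highest reached 8.21. A mean log2 signal under 5 is called dim here.

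Among mucins, the secreted MUC5B and the membrane-bound MUC13 and MUC1 were higher in the arrays labelled shTIGD1, while MUC2, MUC4, MUC15 and MUC16 were dim and did not pass. Of the 29 probe sets, 11 rose and 1 fell at a limma adjusted p under 0.05, and 17 did not pass. Over all probe sets 22.0% passed, 11.5% as higher and 10.6% as lower. The rises were 6 of 13 probe sets of MUC1, 3 of 4 of MUC5B and 2 of 2 of MUC13, and the fall was 1 of 4 of MUC20. The median log2 change of the 29 was 0.11, beside -0.02 over all probe sets. Probe sets of a gene share their transcript and are no independent replicates. With each gene taken by its brightest probe set, 3 of 8 mucin genes rose, beside 9.81% of 18244 genes, and 1 fell, beside 14.0%.

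Most calls fell on brighter probe sets. Of the 16 mucin probe sets with a mean of at least 5, 10 passed, all as higher, beside 30.7% of all probe sets at that level. These 16 stand for 3 genes only (11 for MUC1, 3 for MUC5B and 2 for MUC13) and are not independent. Of the 13 dim ones 2 passed, beside 5.73%. The groups did not overlap for 17 of the 29 (14 higher, 3 lower), where this held for 40.9% of all probe sets.

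**Figure D1:**
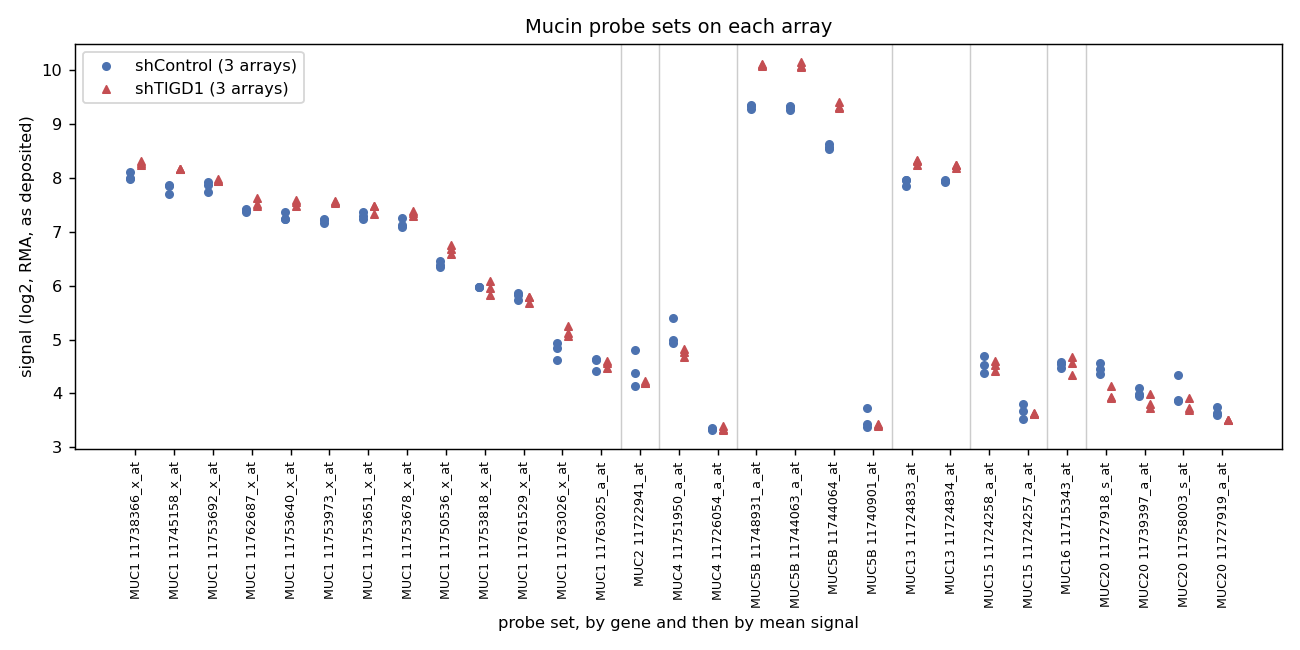
Signal (log2, RMA, as deposited) of each of the 29 mucin probe sets on the 3 shControl arrays (circles) and the 3 shTIGD1 arrays (triangles), grouped by gene. The 3 bright MUC5B probe sets and both MUC13 probe sets separate the groups, while MUC2, MUC4, MUC15, MUC16 and MUC20 lie at the lower edge of the plot.

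MUC5B, the gel-forming mucin that makes up much of airway mucus, had the largest mucin change. Its brightest probe set (11748931_a_at) read 9.33, 9.27 and 9.34 in shControl, against 10.09, 10.07 and 10.12 in shTIGD1. Every shTIGD1 array lay above every shControl array by far more than the spread inside a group. In shControl its mean was 9.31 ± 0.04 and in shTIGD1 10.09 ± 0.02 (SD, n = 3 each), which gives a log2 rise of 0.78 (SE 0.04, 95% interval 0.68 to 0.87, limma adjusted p = 0.000255), which is 1.72-fold.

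A second MUC5B probe set (11744063_a_at) went from 9.30 ± 0.04 to 10.09 ± 0.05 and the third (11744064_at) from 8.58 ± 0.04 to 9.34 ± 0.05 (SD, n = 3 each). Their rises of 0.79 (SE 0.04, limma adjusted p = 0.000276) and 0.76 (SE 0.05, adjusted p = 0.000322) were close to that of the brightest. Both were designed on the same expressed sequence tag, per the annotation, so they may not be separate readings. Among all 49293 probe sets, 185 had a larger rise than any mucin probe set.

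The fourth MUC5B probe set (11740901_at) stood apart. It read 3.44, 3.37 and 3.72 in shControl, against 3.39, 3.41 and 3.43 in shTIGD1, so it was dim in both groups and the groups overlapped. Its log2 difference was -0.10 (SE 0.09, 95% interval -0.32 to 0.12, limma adjusted p = 0.481). The background control probe sets had a median of 3.27, so a change of MUC5B could not be read from this probe set.

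**Figure D2:**
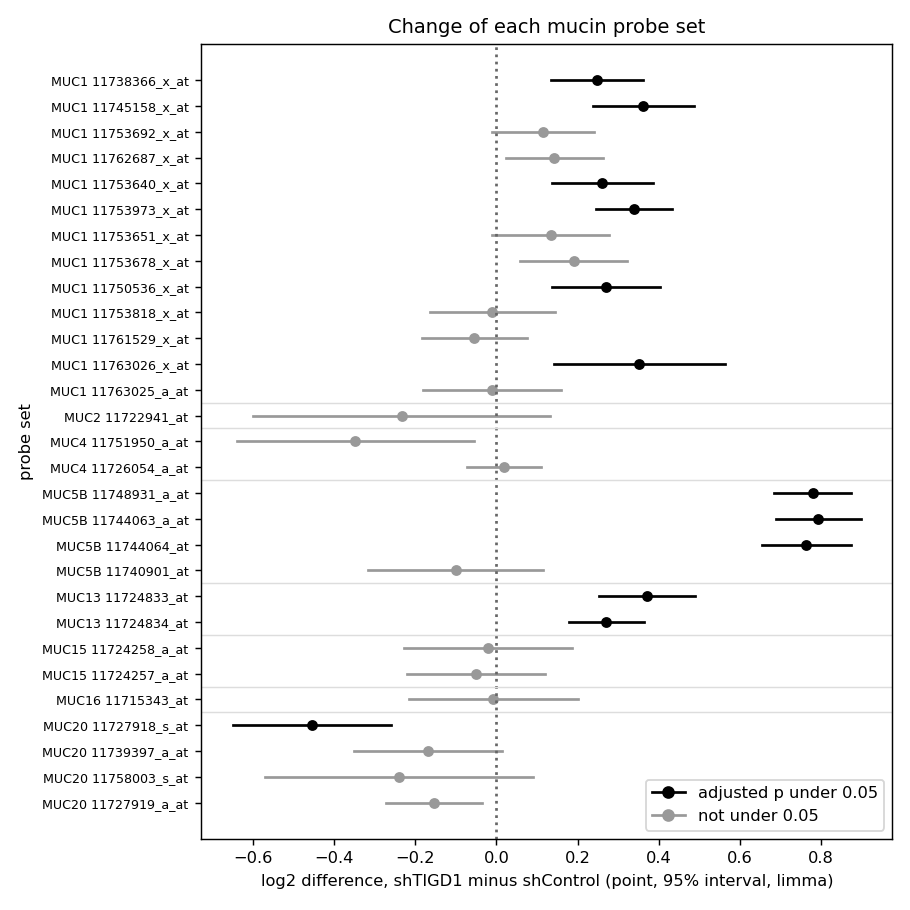
Log2 difference between shTIGD1 and shControl of every mucin probe set, as a point with its 95% interval from limma (n = 3 arrays each, interval not adjusted for the number of probe sets). Black marks an adjusted p under 0.05: 3 MUC5B probe sets lie near 0.78, MUC1 and MUC13 between 0.25 and 0.37, and 1 MUC20 probe set lies at -0.46.

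MUC13, a membrane mucin of the gut and other epithelia, rose with both of its probe sets. The first (11724833_at) read 7.96, 7.96 and 7.84 in shControl, against 8.31, 8.24 and 8.32 in shTIGD1, without overlap. Its log2 rise was 0.37 (SE 0.05, limma adjusted p = 0.00376), or 29.3% with a 95% interval of 19.1% to 40.4%. The second (11724834_at) read 7.92, 7.94 and 7.96 and then 8.18, 8.23 and 8.23, again without overlap, a rise of 0.27 (SE 0.04, adjusted p = 0.00446). The difference between the rises of the probe sets was -0.10 (SE 0.06) and did not pass (limma adjusted p = 0.400).

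MUC1, the membrane mucin whose tail binds signalling proteins such as the adaptor GRB2 and beta-catenin, was covered by 13 probe sets. By their names, 12 of these hold probes that can also match other sequences (suffix _x_at), and the annotation lists a sequence record of its own for all but 11763025_a_at and 11763026_x_at, which share one. The brightest (11738366_x_at) read 7.98, 8.0 and 8.10 in shControl, against 8.28, 8.24 and 8.31 in shTIGD1. The groups did not overlap, and the log2 rise was 0.25 (SE 0.05, limma adjusted p = 0.0130), or 18.7% (95% interval 9.76% to 28.4%).

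The MUC1 probe sets with the clearest rises were 11745158_x_at and 11753973_x_at. The former went from 7.71, 7.84 and 7.87 to 8.17, 8.17 and 8.16, a rise of 0.36 (SE 0.05, limma adjusted p = 0.00486). The latter went from 7.22, 7.24 and 7.17 to 7.53, 7.55 and 7.57, a rise of 0.34 (SE 0.04, adjusted p = 0.00238). In both, the groups did not overlap, though the shControl arrays of 11745158_x_at were more spread (SD 0.09) than its shTIGD1 arrays (SD 0.004).

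Another 3 MUC1 probe sets passed less firmly. These were 11753640_x_at (0.26, limma adjusted p = 0.0152), 11750536_x_at (0.27, adjusted p = 0.0167) and the dim 11763026_x_at (0.35, adjusted p = 0.0327). Each lost its call without shTIGD1 replicate 1 or shTIGD1 replicate 2, with adjusted p between 0.0531 and 0.0792. The first 2 did so without shControl replicate 1 (adjusted p = 0.0516 and 0.0557), and 11750536_x_at also without shControl replicate 3 (adjusted p = 0.0518). The dim probe set did so also without shControl replicate 2 (0.0546), shControl replicate 3 (0.0698) and shTIGD1 replicate 3 (0.0959).

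Of the 7 MUC1 probe sets that did not pass, 4 had log2 differences between 0.11 and 0.19. The nearest to the threshold was 11753678_x_at (0.19, SE 0.06, limma adjusted p = 0.0509), whose groups did not overlap. The remaining 3 (11753818_x_at, 11761529_x_at and 11763025_a_at) had differences of -0.01, -0.05 and -0.01 and mean signals of 5.96, 5.78 and 4.56. These lie under the 95th percentile of the immune and endothelial genes, as do the called 11750536_x_at (6.53) and 11763026_x_at (4.97). The brightest of those genes, CD14 at 8.21, lay above every MUC1 and MUC13 probe set. Over the 13, changes ran from -0.05 to 0.36 with a median of 0.19.

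Unequal change inside MUC1 was tested by setting each probe set against the brightest on the same array. Of 12 such differences 1 passed, for 11761529_x_at (-0.30, SE 0.05, limma adjusted p = 0.0234). Over 27034 probe sets of all genes tested in this way, 8.65% passed. The MUC1 call ended without any 1 of the 6 arrays, with adjusted p between 0.0540 and 0.0791.

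**Figure D3:**
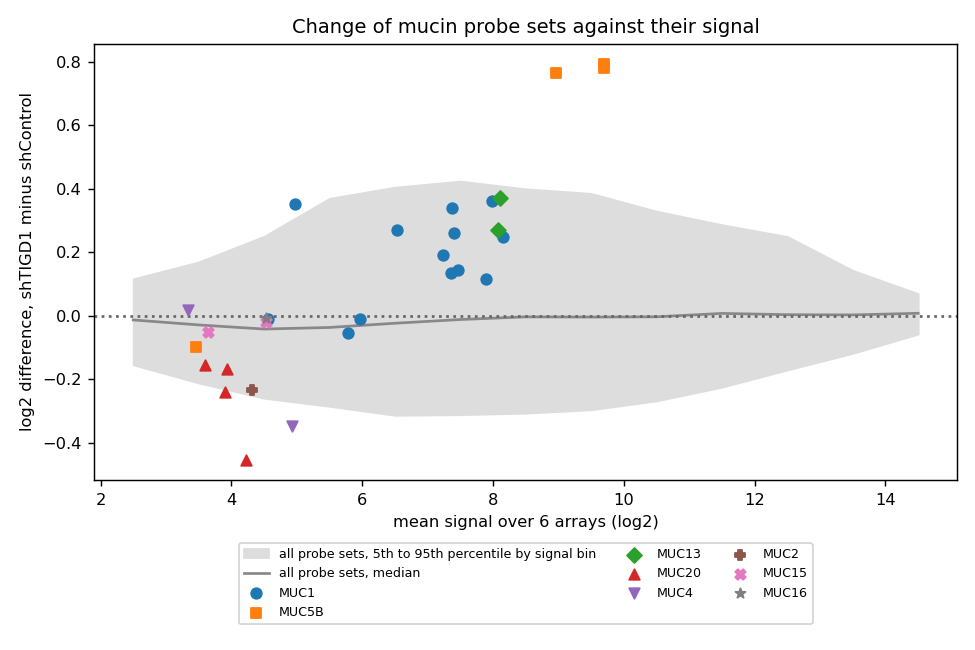
Log2 difference between shTIGD1 and shControl against the mean log2 signal over 6 arrays for the 29 mucin probe sets, over the median (line) and the 5th to 95th percentile (grey band) of all probe sets in bins of 1 log2 unit. The 3 bright MUC5B probe sets lie above the band, whose upper edge is 0.40 for signals of 8 to 9 and 0.39 for 9 to 10. MUC13 and all but the dim MUC1 probe set at 0.35 lie inside it, and the MUC20 probe sets lie at the dim end. Below the band lie the MUC4 probe set at -0.35 and the MUC20 probe sets at -0.46 and -0.24.

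MUC20, a membrane mucin that binds the receptor MET, was dim throughout, with means over 6 arrays between 3.59 and 4.23. Its brightest probe set (11727918_s_at) read 4.45, 4.56 and 4.35 in shControl, against 3.93, 4.15 and 3.91 in shTIGD1. The groups did not overlap, and the log2 signal fell by 0.46 (SE 0.08, limma adjusted p = 0.0103). The remaining probe sets had differences of -0.17, -0.24 and -0.15, none of which passed (adjusted p between 0.0687 and 0.271). The suffix _s_at marks probes shared by several transcripts, so the source of this signal is uncertain. The fall of 11727918_s_at did not pass when arrays were levelled on the hybridization controls (-0.24, adjusted p = 0.0521) or the poly-A controls (-0.13, adjusted p = 0.211). By the mean of its 4 dim probe sets, MUC20 had a log2 difference of -0.25 (SE 0.03, limma adjusted p = 0.00236). That mean was not fitted with control levelling.

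MUC4, a membrane mucin that associates with ERBB2, had a brighter probe set (11751950_a_at) at 5.39, 4.94 and 4.99 in shControl, against 4.67, 4.83 and 4.77 in shTIGD1. The first shControl array was the highest, and the groups did not overlap. The log2 difference of -0.35 (SE 0.12) did not pass (limma adjusted p = 0.0897, 95% interval -0.64 to -0.06). It was -0.20 without shControl replicate 1, and it passed with limma's variance trend (adjusted p = 0.0326). The second MUC4 probe set stayed between 3.32 and 3.39 on all arrays, with a difference of 0.02 (SE 0.04).

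The gel-forming intestinal mucin MUC2 read 4.39, 4.13 and 4.80 in shControl, against 4.23, 4.20 and 4.19 in shTIGD1. The shControl arrays were the more spread, and the difference of -0.23 (SE 0.15, 95% interval -0.60 to 0.13) did not pass. It was -0.055 without shControl replicate 3 and -0.39 without shControl replicate 2. MUC16, which carries the CA125 antigen, read 4.59, 4.48 and 4.54 and then 4.34, 4.68 and 4.56, a difference of -0.01 (SE 0.09, 95% interval -0.22 to 0.20). The probe sets of the membrane mucin MUC15 lay between 3.53 and 4.70, with differences of -0.02 (95% interval -0.23 to 0.19) and -0.05 (-0.22 to 0.12). At these levels a change of a low transcript may not be detectable.

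Neighbouring genes were set beside the mucins that rose, as the nearest 3 measured protein-coding genes on each side in RefSeq's order, a choice made after the mucin values were seen. MUC5B lies on chromosome 11 among other gel-forming mucin genes. None of its neighbours passed. These were AP2A2 (0.06), MUC6 (-0.18), MUC2 (-0.23), TOLLIP (-0.07), BRSK2 (0.07) and MOB2 (-0.01), each by its brightest probe set, with limma adjusted p of at least 0.188. Over all genes taken in this way, 9.81% rose and 14.0% fell.

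Beside MUC1 on chromosome 1, THBS3 (-0.20, limma adjusted p = 0.0377), MTX1 (-0.18, adjusted p = 0.0159) and ENTREP3 (-0.20, adjusted p = 0.00894) fell on one side, though with the arrays levelled on the hybridization controls the changes were 0.02, 0.04 and 0.02. DPM3 (-0.05), KRTCAP2 (0.09) and TRIM46 (-0.07) on the other did not pass. Beside MUC13 on chromosome 3, the integrin gene ITGB5 fell by 0.41 (SE 0.03, limma adjusted p = 0.000879), with -0.19 and -0.09 after levelling on the hybridization and poly-A controls. HEG1, UMPS, KALRN, SLC12A8 and ZNF148 did not pass with their brightest probe sets. By its brightest probe set no neighbour of these 3 mucins passed as higher, and 1 of the 9 probe sets of ZNF148 did. Beside the 9.81% of all genes that rose and 14.0% that fell, calls in so small a set say little.

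The transcripts whose profile over the 6 arrays was most like that of the second MUC5B probe set, the one with the largest change, were CLDN2, NUBPL and PRSS3. Likeness was the root mean square distance of mean-centred log2 values, over 24377 probe sets with a mean of at least 6. The distances were 0.021, 0.032 and 0.033. CLDN2, a pore-forming tight junction protein, read 9.13, 9.09 and 9.08 in shControl, against 9.87, 9.82 and 9.91 in shTIGD1. For the brightest MUC1 probe set the nearest were ADO (0.016), PNN (0.020) and KDELR3 (0.020), with log2 changes of 0.24, 0.26 and 0.27.

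Genes that make, modify, release or regulate mucins were examined in 6 lists, each gene by its brightest probe set. Calls on the other probe sets of a gene are not counted in this way. By the mean of the probe sets of a gene, more related genes rose, as given in the closing section. Over all lists 18 of 132 genes rose (13.6%) and 20 fell (15.2%), beside 9.81% and 14.0% of all genes. Levelling on the hybridization or poly-A controls makes each rise larger and each fall smaller by 0.22 or 0.32. Their medians lay between -0.09 and 0.00, beside -0.04 over all genes. Of the other mucins and mucin-like proteins, 2 of 12 rose and 1 fell, beside 9.81% and 14.0%. The joint lubricant PRG4 (0.94) and the sialomucin PODXL (0.34) rose, and the membrane mucin MUC12 fell by 0.33, to a dim mean of 4.91. PRG4 rose from a dim shControl mean of 4.95. With all probe sets tested together, 1 of 3 passed for PRG4, 2 of 3 for PODXL and 1 of 2 for MUC12. CD164, whose brightest probe set did not pass, had 6 of 8 higher. The gel-forming MUC6 and the membrane mucins MUC17 and MUC21 had differences of -0.18, -0.21 and -0.08 that did not pass.

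Enzymes of O-glycan assembly, which start, extend and cap the sugar chains of mucins, had 5 of 29 higher (17.2%, beside 9.81% of all genes) and 3 lower (10.3%, beside 14.0%). GALNT4, a transferase that adds the first sugar, read 9.73, 9.83 and 9.76 in shControl, against 10.20, 10.27 and 10.18 in shTIGD1, a rise of 0.44 (SE 0.04, limma adjusted p = 0.00158). The related GALNT2 rose by 0.35 and the dim sialyltransferase ST6GALNAC2 by 0.53. Another sialyltransferase, ST3GAL4, fell by 0.47 (SE 0.05, adjusted p = 0.00246), with all 3 of its probe sets lower.

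Mucous secretion factors had 3 of 26 higher in limma (11.5%, close to the 9.81% of all genes) and 0 lower (14.0% of all genes). At an unadjusted limma p under 0.05, 4 were lower, and SLPI (0.11) and FCGBP (0.22) were higher besides those 3. The share of all genes at that threshold was not worked out. AGR2, a protein disulfide isomerase of the endoplasmic reticulum needed to fold gel-forming mucins, was among the brightest. It read 12.16, 12.15 and 12.14 in shControl, against 12.51, 12.54 and 12.55 in shTIGD1, a rise of 0.38 (SE 0.03, limma adjusted p = 0.000940). VAMP8, which acts in the fusion of mucin granules with the cell membrane, rose by 0.29. CREB3L4 (0.13, adjusted p = 0.0459) passed as the third, but neither of its 2 probe sets did when all probe sets were tested together.

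Of 27 transcription factors known to act on mucin genes or mucous cells, 2 rose (7.41%, beside 9.81% of all genes) and 5 fell (18.5%, beside 14.0%). For some uncalled factors other probe sets passed when all probe sets were tested together. Higher were 7 of 8 for HIF1A, 5 of 8 for EHF, 2 of 3 for KLF5, 1 of 6 for SP3 and 1 of 7 for CREB1. Lower were 2 of 3 for SP1. SPDEF, a driver of the goblet cell programme, read 7.95, 8.01 and 8.10 in shControl, against 8.35, 8.38 and 8.54 in shTIGD1, a rise of 0.40 (SE 0.07, limma adjusted p = 0.00733), and all 3 of its probe sets passed. KLF4, a factor of epithelial differentiation, rose by 0.36. The NF-kB subunit gene NFKB1 fell by 0.49 and the receptor gene NOTCH2 by 0.38. Only 1 of 5 NOTCH2 probe sets was lower, and with the arrays levelled on the controls NOTCH2 stood at -0.17 (hybridization) and -0.06 (poly-A), and NFKB1 at -0.27 and -0.17. Of 5 goblet cell markers other than mucins SPDEF alone passed, beside 9.81% of all genes as higher and 14.0% as lower. It is the same SPDEF counted above. FCGBP had a mean of 6.48 and a difference of 0.22 (SE 0.08, limma adjusted p = 0.108), and the dim BPIFB1, TFF3 and CLCA1 had 0.00, 0.03 and -0.09.

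Among inducers of mucin genes and their receptors, 3 of 20 rose (15%, beside 9.81% of all genes) and 6 fell (30%, beside 14.0%). The cytokines TNF, IL1A and IL6, which induce mucin genes in airway cells, fell by 0.93, 0.82 and 0.80 (SE 0.06, 0.05 and 0.05). ERBB3, a receptor of the EGF receptor family, read 6.96, 7.07 and 6.75 in shControl, against 7.74, 7.74 and 7.90 in shTIGD1, a rise of 0.87 (SE 0.09, limma adjusted p = 0.00188). Only 1 of the 3 ERBB3 probe sets passed when all probe sets were tested together. EGFR itself fell by 0.52 (SE 0.05, limma adjusted p = 0.00126), with 5 of its 8 probe sets lower and 0 higher. With the arrays levelled on the controls EGFR stood at -0.30 (hybridization) and -0.19 (poly-A). ERBB2 (-0.01) did not pass.

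Partners and sheddases of membrane mucins had 3 of 18 higher (16.7%, beside 9.81% of all genes) and 5 lower (27.8%, beside 14.0%). The rises were those of LGALS3, a galectin that binds MUC1 (0.20), the protease ADAM10 (0.20) and the membrane linker EZR (0.15). The adhesion receptor ICAM1, a ligand of MUC1, fell by 0.53, the kinase LYN by 0.32, TRIM29 by 0.30 and ADAM17, a protease that sheds MUC1, by 0.28. The ADAM17 probe sets disagreed, with 1 higher and 2 lower. With all probe sets tested together, 4 of 8 were higher for the beta-catenin gene CTNNB1, 2 of 4 for ADAM9 and 1 of 6 for MET. For GSK3B 1 of 2 was lower. The brightest probe set of each of these genes did not pass. LYN, TRIM29 and ADAM17 turned to 0.00, 0.02 and 0.04 when arrays were levelled on the poly-A controls.

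**Figure D4:**
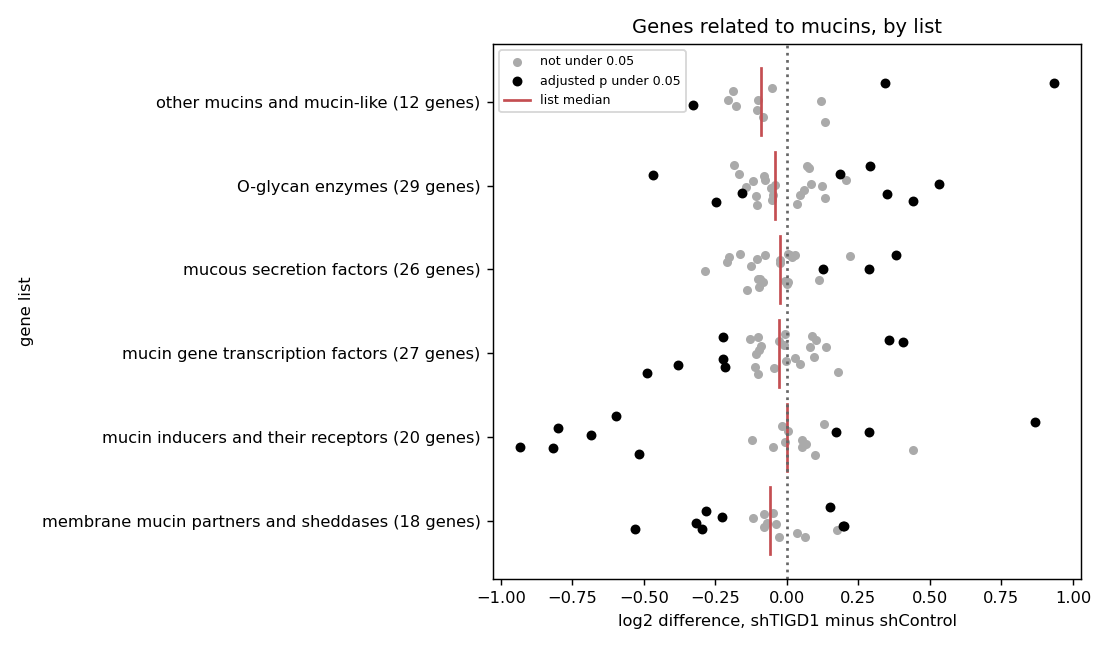
Log2 difference between shTIGD1 and shControl of each measured gene in the 6 lists, by its brightest probe set. Black points have an adjusted p under 0.05 and red bars are list medians, which lie between -0.09 and 0.00, and points are spread vertically for legibility only.

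Some technical measures moved with the groups. The hybridization controls fell by 0.22 and the poly-A controls by 0.32 on the log2 scale from shControl to shTIGD1 arrays. The difference between 3′ and 5′ signal of ACTB was 0.37 to 0.40 on the shControl arrays and 0.31 to 0.36 on the shTIGD1 arrays. With the arrays levelled on these controls, the MUC5B rises were 0.98 to 1.01 (hybridization) and 1.08 to 1.11 (poly-A). Those of MUC13 were 0.59 and 0.49 (hybridization) and 0.69 and 0.59 (poly-A), the brightest MUC1 probe set had 0.46 and 0.57, and the median over all probe sets moved from -0.02 to 0.19 and 0.30. Both levellings raise every change by the same amount, so they could not turn a rise. Among cell type markers, the mean level of the 7 simple epithelial ones went from between 10.89 and 10.92 in shControl to between 11.11 and 11.16 in shTIGD1. Of these, EPCAM (0.87) and CDH1 (0.66) rose by their brightest probe sets. The brightest probe sets of the others did not pass and had differences between -0.04 and 0.07. With all probe sets tested together, 2 of 3 were higher for CLDN4 and 1 of 8 for KRT8. The part of these measures in the mucin changes was not tested.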

How the data were processed

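Biotin-labelled RNA was hybridized to 1-colour Affymetrix arrays. The values the authors deposited are log2 signals. The submitters' processing notes name GCOS and RMA, without versions, and the log base was read from the values. RMA makes the arrays' distributions alike, so a shift common to most genes is removed. Of 49395 probe sets 102 controls were left out. The annotation gave 1 gene symbol to 45278, several to 1333 and none to 2682, and none was named from several.

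The main model was limma's (3.58.1, R 4.3.3) linear fit with moderated variances, 3 arrays against 3, on every probe set. P-values are two-sided, adjusted by Benjamini-Hochberg across the whole table, with a threshold of 0.05. Within-gene differences and genes by brightest probe set were fitted likewise, and the fit was tested on simulated data. Tables and figures used Python 3.11.15, pandas 2.3.3 and matplotlib 3.10.9. Named genes were all members, TIGD1, the 4 most changed genes of each list among those that passed, and the nearest 3 profiles. Others (MUC6, MUC17, MUC21, CD164, LGALS3, ADAM9, ADAM10, EZR, CTNNB1, MET, GSK3B, EGFR, ERBB2, HIF1A, EHF, KLF5, SP1, SP3, CREB1, marker genes and chromosomal neighbours) were chosen after their values were seen. Lists can share genes. Members and lists were chosen with earlier results of these data known. Arrays shared equal values at 184 probe sets at most, so none repeats another. Alternatives were 1 probe set or the mean per gene, repeated quantile normalization, equal medians, control levelling, filters at a signal of 5 and 6, trend, robust, array weights, a replicate block and leaving out each array.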

Additional observations from a re-analysis of the deposited data

How the results depend on the processing

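The rises of MUC5B (3 probe sets) and MUC13 (2) passed under every alternative run, though control levelling could only enlarge them. Rises among mucin probe sets numbered 18 with hybridization and 22 with poly-A control levelling, falls 0 with both, 0 with a signal of at least 5 or 6, and 2 with trend. Over all probe sets, rises and falls were 25754 and 831 (hybridization), 34597 and 197 (poly-A). Over related genes they were 70 and 10, and 88 and 6. Of the 20 related falls, 1 turned positive with hybridization and 9 with poly-A levelling. By gene, 3 mucin genes rose with 1 probe set per gene or the mean, and the dim MUC20 fell with either. Of 18244 genes, 1789 then rose and 2551 fell with 1 probe set per gene, and 2250 and 2492 with the mean. With the mean, 30 of the 132 related genes rose, where 18 did by the brightest probe set. The list counts thus depend on how a gene is read.

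Replicate numbers did not pair the arrays (correlations of deviations -0.01, -0.10 and -0.07). With the replicate block, 3716 probe sets rose and 2746 fell, 10 mucin probe sets rose, and 0 differed from the brightest of their gene. In the main fit 2 differed, 1 of them the MUC5B probe set near background. At a signal of at least 5 the count was also 2, though that MUC5B probe set is filtered out there, so these are not the same 2. At a signal of at least 6 it was 0, where both probe sets of the main fit are filtered out. In the block fit 11763026_x_at of MUC1 missed (adjusted p = 0.0556). Leaving out each array gave 8 to 10 mucin rises, 1 fall each time, 1 unequal change within a gene, 3700 to 4778 rises and 2976 to 3850 falls over all probe sets, and 12 to 16 related rises and 15 to 18 falls.

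Sign changes met only probe sets that had not passed. With repeated quantile normalization they were MUC1 11763025_a_at (0.014), MUC15 11724258_a_at (0.0081) and MUC16 (0.019). With hybridization levelling MUC1 reached 0.21, 0.16 and 0.21, MUC5B 0.12, MUC15 0.19 and 0.17, MUC16 0.21 and MUC20 0.047 and 0.061. With poly-A levelling MUC1 reached 0.31, 0.27 and 0.31, MUC2 0.087, MUC5B 0.22, MUC15 0.30 and 0.27, MUC16 0.31 and MUC20 0.15, 0.082 and 0.17. Leaving out each array gave -0.070 to 0.053 (11753818_x_at) and -0.079 to 0.030 (11763025_a_at) for MUC1, -0.0018 to 0.030 for the dimmer MUC4 probe set, -0.170 to 0.0052 for the dim MUC5B one, -0.095 to 0.060 and -0.120 to 0.019 for MUC15, and -0.085 to 0.084 for MUC16. The cause was not tested. Dim signals limit what can be said of MUC2, MUC4, MUC15, MUC16 and MUC20.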
